A study of Homo sapiens with 2 samples.

Results

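The genes described here are 9 genes of the HLA class I antigen presentation pathway: the heavy chain genes HLA-B, HLA-C, HLA-E and HLA-F, the light chain gene B2M, the peptide transporter genes TAP1 and TAP2, the tapasin gene TAPBP and the immunoproteasome gene PSMB9. They were taken by gene symbol, with every probe set annotated to them, out of 18132 genes with a probe set of their own on the array. All 9 were measured, among 10437 such genes: measured means that a probe set passed a floor, its higher value of the 2 arrays reaching the median of all values, 78.0 on the linear intensity scale (6.29 on the log2 scale). The cells were HCT116, an established human colorectal carcinoma line, collected 72 h after they were given lentivirus (multiplicity of infection 20). The shRAP1 culture received sh-RAP1-4#, an shRNA directed at RAP1, and the shNC culture received a negative-control shRNA. Each culture was hybridised to 1 Affymetrix 3′ expression array, so no difference below has a test or a replicate check, and having 1 array a group limits the precision. Per the labels, the knockdown rests on 1 shRNA in 1 cell line.

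HLA class I molecules display peptides from inside the cell to T cells and natural killer cells. Each consists of a heavy chain bound to beta-2 microglobulin, which is needed for transport to the cell surface. Peptides are cut by the proteasome or its interferon-inducible form, the immunoproteasome, carried into the endoplasmic reticulum by the TAP1 and TAP2 transporter, and loaded with the help of tapasin. Loss or reduction of these genes is a common finding in colorectal cancer, and interferon and NF-kB signalling raise their transcription.

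RefSeq promoter windows of build GRCh38.p14 were found for 8 of the 9 genes, with no entry for HLA-E, and the 250 bases before each start site were searched on both strands. Class I promoters carry, as background, an NF-kB site, an interferon-stimulated response element and an S-X-Y module whose X box holds a CRE-like element and whose Y box is a reversed CCAAT. The stretch from position −200 to position −41 relative to the start site is shown for 3 heavy chain genes and for B2M, because these are the chains of the class I molecule itself. Capitals mark every match to 4 motifs: GAAA, 2 bases of any kind and GAAA (interferon-stimulated response element); GGG, 5 bases of any kind and CC (kappa B); TGACG (the CRE-like element); and CCAAT. They lie at chr6:29723234-29723393 on the plus strand (HLA-F), chr6:31357220-31357379 on the minus strand (HLA-B), chr6:31272133-31272292 on the minus strand (HLA-C) and chr15:44711317-44711476 on the plus strand (B2M).
HLA-F: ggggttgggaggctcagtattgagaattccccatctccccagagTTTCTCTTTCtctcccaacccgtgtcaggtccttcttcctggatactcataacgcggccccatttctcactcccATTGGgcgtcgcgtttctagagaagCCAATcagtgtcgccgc
HLA-B: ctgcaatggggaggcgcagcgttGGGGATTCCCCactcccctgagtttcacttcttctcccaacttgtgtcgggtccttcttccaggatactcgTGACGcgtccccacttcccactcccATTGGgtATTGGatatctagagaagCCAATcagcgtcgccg
HLA-C: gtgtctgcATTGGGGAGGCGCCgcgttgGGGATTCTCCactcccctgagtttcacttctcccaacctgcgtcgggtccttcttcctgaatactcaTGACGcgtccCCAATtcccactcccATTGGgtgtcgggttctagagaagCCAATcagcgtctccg
B2M: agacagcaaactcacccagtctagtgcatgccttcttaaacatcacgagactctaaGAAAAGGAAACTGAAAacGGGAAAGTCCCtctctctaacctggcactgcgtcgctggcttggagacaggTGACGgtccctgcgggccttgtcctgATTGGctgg

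Over 250 bases, the HLA-B and HLA-C promoters were 89.0% identical in a global alignment, HLA-F and HLA-B 80.4%, and HLA-F and HLA-C 78.6%. Identity of B2M to the heavy chain promoters was 49.6% to 50.9%. The response element letters were found in 5 of the 8 genes (HLA-F, B2M, TAP1, TAP2 and TAPBP), against 3.02% of all 35116 promoters. In HLA-F the match lay at position −156 on the opposite strand. In B2M there were 2 overlapping matches, at positions −144 and −138. The kappa B letters were found in 6 of 8 genes, with 54.4% of all promoters holding them. In HLA-B they formed 4 overlapping matches at positions −177 and −176, and HLA-F held none in this window. TGACG was found in 5 of 8 genes against 21.2% of all promoters, and CCAAT in 6 of 8 against 11240 of the 35116. In HLA-C, 1 reversed CCAAT overlapped a kappa B match. The genes also lie close together. All but B2M, on chromosome 15, are on chromosome 6, where TAP2, PSMB8, TAP1 and PSMB9 follow each other among protein-coding genes. TAP1 and PSMB9 run away from each other, with 487 bases between the PSMB9 start site and the nearer of 2 TAP1 start sites.

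The targeted gene was checked first. TERF2IP, the shelterin gene whose protein is named RAP1, stood at 624 in shRAP1 and 1311 in shNC on the linear intensity scale, or 47.6% of the shNC level. The small GTPase genes that share the name differed by −0.18 (RAP1A) and −0.10 (RAP1B) on the log2 scale. Differences of all measured genes, shRAP1 minus shNC on the log2 scale, had a median of 0.01 and an SD of 0.16, with 95% of them between −0.29 and 0.32. Epithelial markers were present in both cultures: 7 of 9 passed the floor, and their summed intensity was 31873 in shRAP1 and 31111 in shNC. Of the leukocyte markers, 1 of 9 with a probe set passed the floor (TYROBP), PTPRC stood at 9.25 in shRAP1 and 11.4 in shNC, and their summed intensity was 247 in shRAP1 and 246 in shNC. Of the fibroblast and endothelium markers 1 of 7 passed (VWF), with sums of 333 in shRAP1 and 319 in shNC, and no listed marker was at 0. The 3′ over 5′ log2 ratio of the ACTB control probe sets was 1.10 in shRAP1 and 1.11 in shNC. Hybridisation controls differed by −0.09 to 0.09. Probe sets for the poly(A) controls, bacterial transcripts added to the RNA before labelling, differed more: 18 for dap, lys and phe by −0.59 to −0.18, and 6 for thr by 0.38 to 0.48. These control differences reach the size of the largest member differences below. Their part in the results was not tested.

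The 9 genes had 45 probe sets, of which 44 carried 1 gene symbol and 1 was shared by HLA-B and HLA-C. The 2 B2M probe sets 11758148_s_at and 11758192_s_at held identical values on both arrays and were counted once, which left 43. Of these, 33 passed the floor. None passed it through 1 array alone. A gene's own value is that of its brightest probe set among those past the floor. Names ending in _x_at or _s_at mark probe sets with probes that can match other transcripts, and 14 of the 15 heavy chain probe sets past the floor have such names. HLA heavy chain genes are near-identical over long stretches, so the signal of 1 heavy chain gene cannot be told apart from that of its relatives by these probe sets.

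All 9 genes were higher in shRAP1 than in shNC by their brightest probe set, where 53.2% of all measured genes were higher. The median of the 9 differences was 0.11, or 1.08-fold, against 0.01 over all measured genes. The heavy chain gene HLA-F and the immunoproteasome gene PSMB9 were at least 1.2-fold higher. At this size 4.96% of all genes were higher and 3.58% lower, and no member was lower. None of the 9 reached 1.5-fold, which 0.211% of genes passed upward and 0.172% downward. The count of 9 rests on the choice of probe set: by the median of each gene's probe sets past the floor, 7 were higher and B2M and TAP1 were lower, at −0.01 each. By probe set, 26 of 33 were higher, with a median of 0.11, against 49.4% of all 23049 single-symbol probe sets past the floor, with a median of −0.0017. Of the 33, 5 were at least 1.2-fold higher, against 4.85% of all probe sets. All 15 heavy chain probe sets were higher, with a median of 0.19, and 11 of 18 for the other members, with a median of 0.04. Probe sets of 1 gene share their target, so they are not independent measurements.

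**Figure D1:**
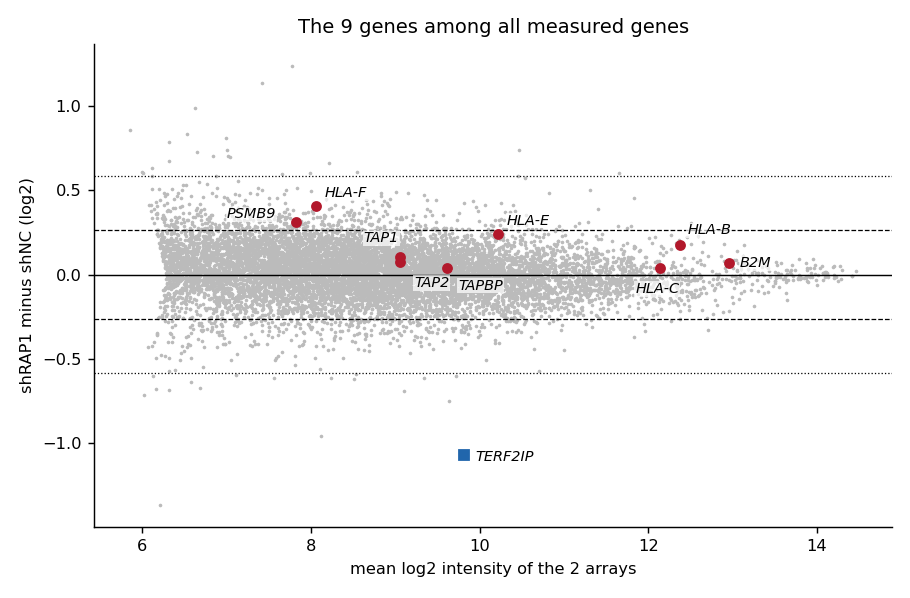
Difference (shRAP1 minus shNC, log2) against the mean log2 intensity of the 2 arrays for each of the 10437 measured genes (grey), the 9 class I and peptide loading genes (red) and TERF2IP (blue square). Dashed lines mark 1.2-fold and dotted lines 1.5-fold. All 9 red points lie above 0, HLA-F at 0.40 and PSMB9 at 0.31 past the 1.2-fold line, while TERF2IP lies at −1.07.

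HLA-F, a nonclassical heavy chain that natural killer cell receptors bind, had the largest difference of the 9. Its brightest probe set, 11718230_a_at, stood at 307 in shRAP1 and 232 in shNC, 1.32-fold higher, a difference of 0.40. This was 2.48 times the SD of the genes nearest in brightness, and 107 of 10437 genes (1.03%) had a higher difference. Both figures use the difference without centring along brightness, which lowered it to 0.375. The name of this probe set ends in _a_at, which marks probes shared by transcripts of the same gene. Probe set 11718231_x_at stood at 310 in shRAP1 and 219 in shNC, a difference of 0.50. Probe set 11734530_x_at stood at 300.4 in shRAP1 and 226 in shNC, a difference of 0.41. The fourth past the floor, 11760144_x_at, stood near it at 89.9 in shRAP1 and 78.1 in shNC, a difference of 0.20. The brighter 3 of the 4 therefore lay between 0.40 and 0.50. The other 6 HLA-F probe sets lay below the floor on both arrays, with differences between −0.31 and 0.16. With those dim probe sets included, the median difference of HLA-F was 0.14.

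HLA-E, a nonclassical heavy chain that displays leader peptides of other class I chains to natural killer cells, was higher on all 6 of its probe sets. The brightest, 11723195_x_at, stood at 1293 in shRAP1 and 1094 in shNC, 1.18-fold higher, a difference of 0.24. The next, 11751618_x_at, stood at 1158 in shRAP1 and 985 in shNC, a difference of 0.23. The other 4 differed by 0.11 to 0.33. The smallest of these was 11758879_s_at, at 899 in shRAP1 and 836 in shNC, and the largest was 11744829_s_at, at 486 in shRAP1 and 387 in shNC. No HLA-E probe set was as high in shNC as in shRAP1, and the median difference of the 6 was 0.21. All 6 names end in _x_at or _s_at, and 656 of 10437 genes (6.29%) had a higher difference than the brightest.

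HLA-B, a classical heavy chain that presents peptides to cytotoxic T cells, stood at 5652 in shRAP1 and 5012 in shNC on its brightest probe set, 11755966_x_at. The second, 11755933_x_at, stood at 4747 in shRAP1 and 4210 in shNC. Both gave a difference of 0.17 and the same 112.8% of the shNC level, so the second adds little to the first, although both are counted among the 15 heavy chain probe sets. The difference was 1.78 times the SD of the genes nearest in brightness, a spread of 0.10 that is smaller than the 0.16 around HLA-F. The remaining HLA-B probe set lay below the floor at 29.7 in shRAP1 and 29.4 in shNC.

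HLA-C, the other classical heavy chain measured, differed less. Its brightest probe set stood at 4593 in shRAP1 and 4467 in shNC, a difference of 0.04, and 41.5% of all genes had a higher one. Its other probe sets stood at 2473 and 736 in shRAP1 and at 2280 and 684 in shNC, differences of 0.12 and 0.11. The probe set shared by HLA-B and HLA-C, 11759581_x_at, lay below the floor at 30.3 in shRAP1 and 34.5 in shNC, a difference of −0.19. By their brightest probe sets, the heavy chains ran from 0.04 for HLA-C through 0.17 for HLA-B and 0.24 for HLA-E to 0.40 for HLA-F. By the median of its probe sets past the floor, HLA-C was at 0.11. This is an order of probe sets, most of which cannot tell a heavy chain gene from its relatives. The SD of the gap between the brightest 2 probe sets of the same gene, divided by the square root of 2, was 0.10 over 6111 genes. This is a spread per probe set, while a step between 2 genes involves 2 probe sets. The steps between HLA-B and HLA-E and between HLA-C and HLA-B were no larger than 1.5 times that spread. The step between HLA-E and HLA-F was larger than this. HLA-F is dimmer, and the SD of the genes nearest in brightness was 0.16 for HLA-F and 0.14 for HLA-E.

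**Figure D2:**
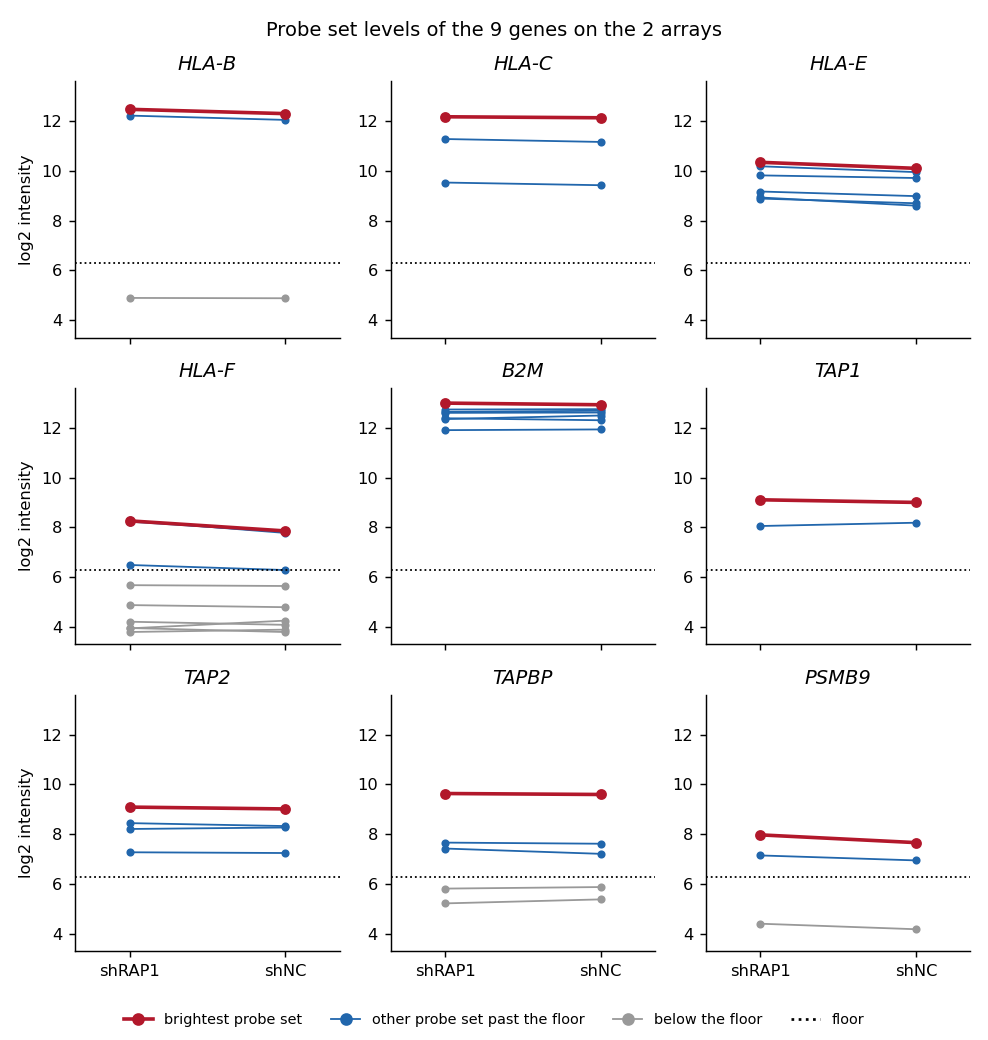
Log2 intensity of every distinct probe set of the 9 genes on the shRAP1 array (left) and the shNC array (right) of each panel, 1 line per probe set. Red lines mark the brightest probe set of each gene, blue lines others past the floor (dotted, 6.29) and grey lines those below it. The lines of HLA-F and PSMB9 past the floor slope down to shNC, while those of B2M and TAP1 slope both ways.

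B2M, the light chain common to all class I molecules, did not go one way. Its brightest probe set, 11756150_at, stood at 8131 in shRAP1 and 7767 in shNC, a difference of 0.07. Of its 7 distinct probe sets, 2 were higher and 5 lower. The highest was 0.08 for 11756151_x_at, at 5334 in shRAP1 and 5047 in shNC. The lowest was −0.14 for 11758299_a_at, at 5216 in shRAP1 and 5756 in shNC. The other 4 lay between −0.05 and −0.01. The median was −0.01, and the 7 differences span 0.22 around 0.

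TAP1, a subunit of the transporter that brings peptides into the endoplasmic reticulum, gave 2 probe sets of opposite sign. The brighter, 11757351_a_at, stood at 552 in shRAP1 and 513 in shNC, a difference of 0.11. The dimmer, 11730729_a_at, stood at 266 in shRAP1 and 291 in shNC, a difference of −0.13. TAP1 therefore has no direction that both of its probe sets share. TAP2, the partner subunit, stood at 545 in shRAP1 and 518 in shNC, a difference of 0.07. Its other 3 probe sets stood at 349, 296 and 155 in shRAP1 and at 321, 309 and 152 in shNC, differences of 0.12, −0.06 and 0.03. The 4 TAP2 values thus lay on both sides of 0, at a median of 0.05.

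TAPBP encodes tapasin, which holds the empty class I molecule at the transporter and favours tightly bound peptides. Its brightest probe set stood at 795 in shRAP1 and 774 in shNC, a difference of 0.04. A second one, at 203 in shRAP1 and 197 in shNC, gave 0.05. The dimmest that still passed the floor gave the largest TAPBP difference, 0.21, at 172 in shRAP1 and 148 in shNC. The 2 probe sets below the floor gave −0.06 and −0.16, so the 3 probe sets past the floor and the 2 below it differ in sign. PSMB9, the immunoproteasome subunit that takes the place of PSMB6, differed more than these loading genes by its brightest probe set. Its brightest probe set, 11726677_a_at, stood at 252 in shRAP1 and 203 in shNC, 1.24-fold higher, a difference of 0.31, and 289 of 10437 genes (2.77%) had a higher one. Its second stood at 142 in shRAP1 and 124 in shNC, a difference of 0.20, and the last, below the floor, differed by 0.22. The second was thus no higher than the TAPBP probe set at 0.21. All 3 PSMB9 probe sets were higher, and none has a name ending in _x_at or _s_at.

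**Figure D3:**
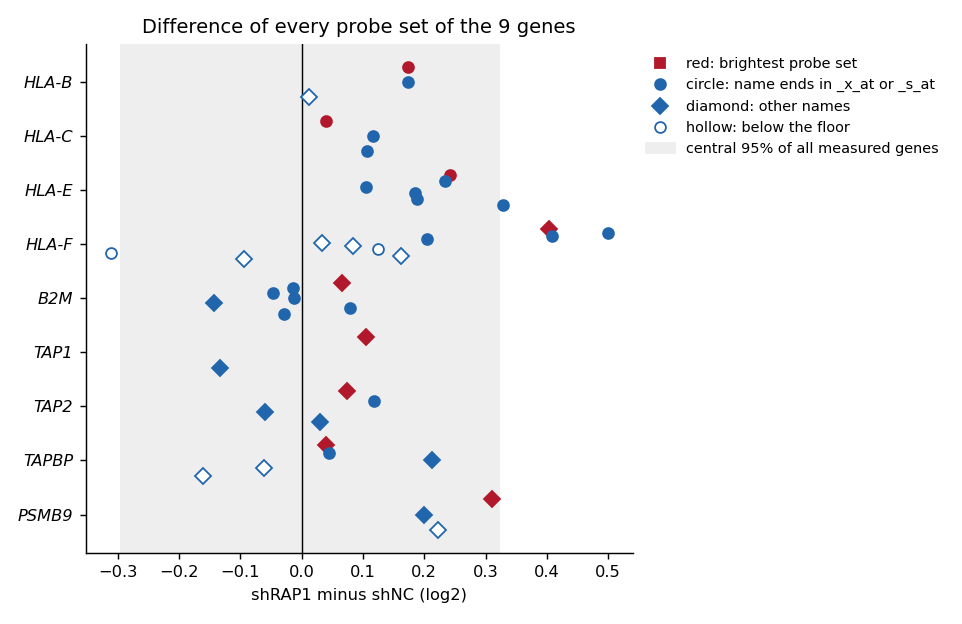
Difference (shRAP1 minus shNC, log2) of each distinct probe set of the 9 genes, 1 point per probe set, the brightest of each gene in red, with hollow points below the floor. The grey band spans the central 95% of all measured genes, −0.29 to 0.32. The HLA-F points at 0.40, 0.41 and 0.50 and the highest HLA-E point, at 0.33, lie above the band, and a hollow HLA-F point at −0.31 lies below it, while B2M, TAP1 and TAP2 have points on both sides of 0.

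Other genes of the pathway were taken from 7 lists, each described by its measured members. To set beside the list counts, 5550 of all 10437 measured genes were higher and 4884 lower. The share higher was 53.2% of all measured genes and 47.8% of the brighter ones past a floor at the 75th percentile. Of the list of immunoproteasome and proteasome activator genes, 4 of 5 were measured and all 4 were lower by their brightest probe set, with a median of −0.11. The activator subunits PSME2 and PSME1, which help open the proteasome, differed by −0.19 (1247 in shRAP1 and 1421 in shNC) and −0.15 (2234 in shRAP1 and 2480.1 in shNC). PSMB10, another immunoproteasome catalytic subunit, differed by −0.06. The remaining gene, PSMB8, was below the floor at 22.5 in shRAP1 and 16.6 in shNC, and its dimmer probe sets differed by −0.20 and −0.18. It is named after its values were seen. The constitutive subunits that these replace were lower on all 3 genes, with PSMB6 at −0.13, PSMB5 at −0.04 and PSMB7 at −0.03. None of these 7 measured proteasome genes passed 1.2-fold. PSME3, of another proteasome activator and also named after its values were seen, differed by −0.02, with dimmer probe sets at 0.16 and 0.12. PSMB7 likewise had a dimmer one at 0.02.

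Of 15 measured transcription factor genes of class I promoters, out of 18 listed, the difference was above 0 for 6 and below 0 for 9, and its median was −0.05. NLRC5, the class I transactivator that works with the RFX complex at the X box, was the only one past 1.2-fold by its brightest probe set. It stood at 121 in shRAP1 and 98.2 in shNC, 1.23-fold higher, a difference of 0.30, on a single probe set past the floor whose name ends in _s_at. Its other probe set, below the floor, differed by 0.26, at 24.9 in shRAP1 and 20.7 in shNC. IRF9, part of the interferon-activated factor ISGF3, stood at 452 in shRAP1 and 527 in shNC, a difference of −0.22. Its 4 probe sets past the floor lay between −0.54 and −0.07. Of all 23049 single-symbol probe sets past the floor, 1117 were at least 1.2-fold higher and 1133 at least 1.2-fold lower. Among dimmer probe sets of the transcription factor genes past the floor, 3 were past 1.2-fold, all lower. They were that of IRF9 at −0.54, one of NFYB, a subunit of the CCAAT-binding factor NF-Y, at −0.44 (294 in shRAP1 and 399 in shNC), and one of RFX5, a subunit of the RFX complex, at −0.29 (213 in shRAP1 and 261 in shNC). NFYB and RFX5, named after their values were seen, differed by −0.11 and −0.07 on their brightest. RFXAP, also named after its values were seen, is among the 9 genes below 0. It passed the floor through shNC alone, where it is high, at 76.4 in shRAP1 and 84.3 in shNC. RELA, an NF-kB subunit, differed by 0.16, with 3 probe sets between 0.10 and 0.16. Of the 7 interferon receptor and kinase genes, 2 lay above 0 and 5 below by their brightest probe sets, at a median of −0.06. By these, none was past 1.2-fold. Dimmer probe sets past the floor went past 1.2-fold in both directions, one of IFNAR1 at −0.28 and one of IFNAR2 at 0.27. IFNAR2 is named after its values were seen, and this probe set passed through shRAP1 alone, where it is high (83.0 against 68.7 in shNC). IFNAR1, JAK2 and IFNGR2, which carry type I and type II interferon signals, differed by −0.14, −0.14 and −0.13 on their brightest. The 4 IFNAR1 probe sets past the floor lay between −0.28 and −0.06. The JAK2 value in shRAP1, 74.7 against 82.3 in shNC, lay below the floor, so this probe set passed through shNC, where it is high. The other JAK2 probe set past the floor was at 0.05 and passed through shRAP1 alone, where it is high (79.3 against 76.5 in shNC).

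Of 17 listed heavy chains and related surface molecules, 10 were measured. Higher values were found for 6 and lower for 4, and the median difference was 0.07. MR1, 1 of the 6 and named after its values were seen, passed the floor through shRAP1 alone, where it is high. It stood at 84.1 in shRAP1 and 76.2 in shNC. HLA-H, a class I pseudogene, stood at 95.9 in shRAP1 and 73.1 in shNC, a difference of 0.39. Its shNC value lay below the floor and its name ends in _x_at, so it shares the limits of the heavy chain probe sets. ULBP1, a ligand of the activating receptor NKG2D, differed by 0.23, at 208 in shRAP1 and 177 in shNC. HFE, a class I-like regulator of iron uptake, differed by −0.22 with 4 probe sets past the floor between −0.23 and −0.04. The HFE probe set at −0.23 passed through shNC alone, where it is high, at 71.6 in shRAP1 and 84.2 in shNC. Of 6 assembly factors, 4 were measured, of which 2 lay above 0 and 2 below, around a median of 0.03. The lectin chaperone CALR differed by −0.18, the disulfide isomerase PDIA3 by 0.11 and the tapasin relative TAPBPL by 0.10. TAPBPL, at 78.6 in shRAP1 and 73.6 in shNC, passed the floor through shRAP1 alone, where it is high.

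Genes of the class II pathway, which loads peptides from outside the cell, gave low signal. Of 12 listed genes 7 were measured. The difference was above 0 for 6 of the 7, against 53.2% of all measured genes, and the median was 0.11. The 53.2% covers genes of every brightness. After the differences were centred along brightness by lowess, the list median was 0.06, and 49.6% of all measured genes were higher. HLA-DRA, the chain common to HLA-DR molecules, stood at 258 in shRAP1 and 210 in shNC, a difference of 0.29, and its second probe set past the floor gave 0.30. HLA-DMA, which helps load class II molecules, differed by 0.13, and HLA-DPB1 by 0.12. The names of both HLA-DRA probe sets past the floor end in _s_at or _x_at. The remaining HLA-DRA probe set, whose name has neither ending, lay below the floor. It stood at 12.4 in shRAP1 and 13.8 in shNC, a difference of −0.16.

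**Figure D4:**
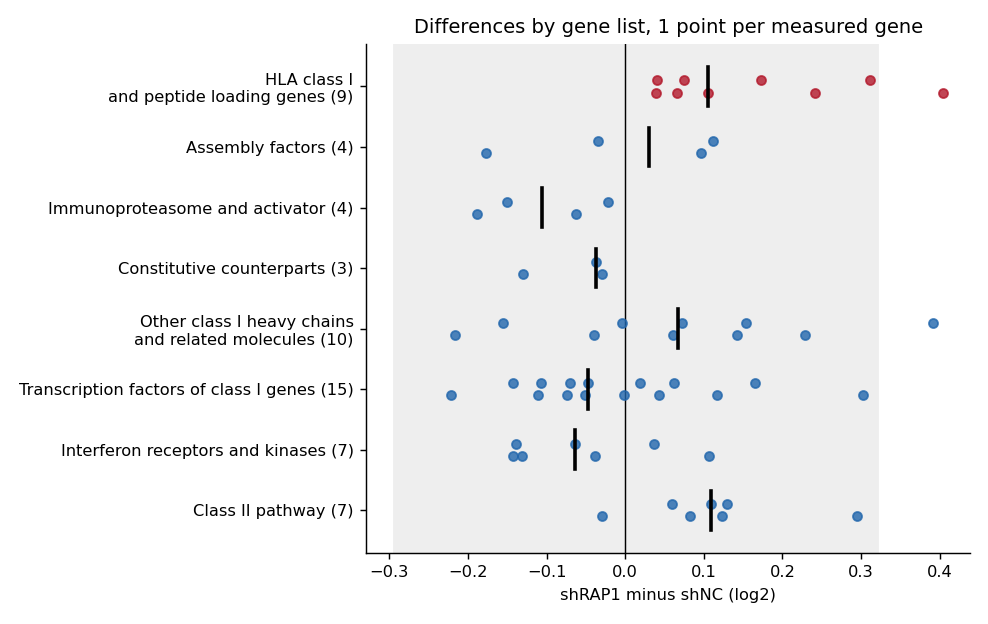
Difference (shRAP1 minus shNC, log2) of each measured gene, 1 point per gene, in the class I and peptide loading genes (red) and in 7 lists of related genes (blue), with the number of measured genes in brackets. Black bars are medians and the grey band spans the central 95% of all measured genes. The medians were 0.11 for the 9 genes, −0.11 for the immunoproteasome and activator list, −0.05 for the transcription factors and 0.11 for the class II list.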

How the data were processed

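RNA from 2 HCT116 cultures was measured on 1 array each. The authors deposited 1 intensity per probe set and array, made with RMA per the submitters' processing notes and found here to be on a linear scale. The RMA version is not given in the sources used here. RMA ordinarily includes quantile normalisation, which sets each difference relative to the rest of the array. Log2 was taken with a pseudocount of 0. Gene symbols came from the platform annotation; 44988 of 49293 non-control probe sets carried 1 symbol, 1832 several and 2473 none, and members with several symbols were kept apart. A probe set past the floor had a higher value of at least the median of all non-control values. Members, lists and the floor were chosen with earlier results of these data known. From each list up to 3 genes with the largest difference in size were named. The promoter sequences are RefSeq's. The software was pandas 2.3.3, numpy 2.4.6, statsmodels 0.14.6 and matplotlib 3.10.9 under Python 3.11.15. The steps were tested on simulated data. Genes were counted at 1.2-fold and 1.5-fold, with no test. Alternatives changed the probe set rule, the floor, the probe sets admitted, the centring and the pseudocount.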

Additional observations from a re-analysis of the deposited data

How the results depend on the processing

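Each of the 9 gene differences was recomputed under 8 other settings, where the setting left a value. Of 67 such values, 64 moved by less than 0.10, the spread per probe set given above. Part of this was fixed beforehand. With no floor, every gene kept its brightest probe set, so its value could not move. So did the 7 genes left with the floor at the 75th percentile and the 6 left without _x_at or _s_at names. Median centring moved all 9 genes by the same 0.01. The 0.10 also exceeds the main differences of HLA-C, B2M, TAP2 and TAPBP. B2M counts among the 64 although its sign changed. TAP1 changed sign, to −0.0136, by the median of its probe sets, with or without the floor, as its 2 probe sets had opposite signs. HLA-F moved to 0.14 by the median of all probe sets with no floor, where 6 of 10 were dim. B2M ranged from −0.01 to 0.08, HLA-E from 0.21 to 0.25, HLA-B from 0.16 to 0.19 and PSMB9 from 0.22 to 0.31. Genes lower in shRAP1 numbered 2 in place of 0 by the median of probe sets, with or without the floor. Genes past 1.2-fold numbered 1 in place of 2 by that median with the floor, 0 with no floor, and 0 with the floor at the 75th percentile, where 7 of the 9 genes were left without HLA-F and PSMB9. The count past 1.5-fold was 0 under all settings. Without names ending in _x_at or _s_at, 6 genes were left and HLA-B, HLA-C and HLA-E had no value. Of the 33 probe sets, 7 were lower, which became 11 with no floor and 3 without such names, as probe sets were added or left out. The median over the 9 genes ranged from 0.07 to 0.11. Lists kept within that spread of 0.10 around their main medians, except the assembly factors. These were at −0.10 by the median of all probe sets with no floor, against 0.03 as reported. Their sign also changed under 4 other settings. The spread of 0.10 is about as large as, or larger than, every list median, so staying within it says little. Within it, the class II median ranged from 0.04 to 0.12 and the transcription factor median from −0.06 to −0.0034. No paired analysis was possible because each group held 1 array.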
